A study of Mus musculus with 9 samples.

Results

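Gli2 positive cells were cells of the mouse embryonic fibroblast line NIH3T3-CG in which at least 1 unique molecular identifier (UMI, the tag that marks 1 captured RNA molecule) of Gli2 was counted. Gli2 negative cells were those in which no Gli2 UMI was counted. Both classes were taken from barcodes with 20000 to 60000 UMIs and at most 10% mitochondrial UMIs, a window that held 10940 of the 50106 barcodes in the 9 libraries. Of these, 3162 (28.9%) were Gli2 positive and 7778 were Gli2 negative. The cells were thus chosen by their raw Gli2 count, so Gli2 values are given as a description without a test. A cell with no Gli2 UMI may still hold Gli2 RNA that was not captured.

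The study followed single-cell RNA after stimulation with SAG, a small molecule that activates the receptor Smoothened. Experiment 1 had 1 library each at 0 h, 17 h and 30 h of SAG. Experiment 2 had libraries at 0 h, 19 h and 30 h, 1 set without Dox and 1 with Dox. The 3 libraries at 0 h held 540 positive and 3692 negative cells, and the 6 SAG libraries held 2622 and 4086. The labels of Experiment 1 do not mention Dox, so its libraries were taken as without Dox. What Dox induces, whether the line is 1 clone and whether cultures were separate are not stated in the labels. No library without SAG at the later times was analysed here, so time in culture and SAG cannot be told apart. Comparisons of Gli2 positive with Gli2 negative cells set the 2 classes of the same library against each other, so time, Dox and library are shared by both sides. Values set side by side between libraries, times, Dox or experiments do not share them.

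GLI2 is the main transcriptional activator of the Hedgehog pathway. Without signal, the receptor PTCH1 keeps Smoothened inactive and SUFU holds the GLI factors in check. When Smoothened is active in the primary cilium, GLI2 is converted to an activator that turns on Gli1, Ptch1 and other targets, and in fibroblasts Gli1 is the usual readout of the response. The matrices also hold an added feature named GFP_g1, whose sequence is not described in the sources used here.

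The cells of the window carried 17032264 to 75322919 UMIs per library. All 13 fibroblast markers (among them collagens and Vim) were detected in both classes of each library, with summed levels of 6341 to 13960 CPM (each gene's UMIs relative to all UMIs of the summed class). Smooth muscle and myofibroblast markers summed to 145 to 547 CPM. Markers of the other cell types were low in both classes. The summed level was at most 2.31 CPM for endothelial cells, 0.605 CPM for epithelial cells, 15.3 CPM for blood cells and 21.0 CPM for adipocytes. No library held a cell type that should lack Gli2, so a background share of Gli2 positive cells could not be measured. Any pair of libraries shared at most 56 barcodes. No doublet caller was run; the upper UMI limit was the only guard.

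Within each of the 3 sets of libraries (Experiment 1, and Experiment 2 without and with Dox), Gli2 was detected in a larger share of cells with SAG than at 0 h. Over all cells of the window its level was 4.67, 7.69 and 5.31 CPM at 0 h, 17 h and 30 h in Experiment 1. In Experiment 2 without Dox it was 2.66, 5.14 and 12.02 CPM at 0 h, 19 h and 30 h, and with Dox it was 8.16, 28.7 and 30.8 CPM. The libraries with Dox were thus above those without Dox at each matched time. The share of positive cells followed the same order within each set. It was 13.5%, 23.7% and 19.3% in Experiment 1, then 8.20%, 15.3% and 37.1% without Dox and 21.4%, 59.8% and 65.9% with Dox in Experiment 2. After each cell was thinned to 20000 UMIs, the shares were 8.68%, 13.7% and 12.5%, then 5.33%, 9.75% and 20.0%, then 15.0%, 40.2% and 42.4%. The order of the libraries within each series was the same with and without thinning.

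Most positive cells rested on a single molecule. The share of them with exactly 1 Gli2 UMI was 82.9% to 94.7% at 0 h and 46.7% to 88.6% with SAG, and no cell had more than 11. If the cells of a library carried Gli2 at 1 even level, Poisson sampling at their own depths would give 13.8%, 23.6% and 19.5% positive cells in Experiment 1. The corresponding shares were 8.28%, 16.3% and 40.3% without Dox and 22.6%, 66.0% and 71.3% with Dox in Experiment 2. The observed share was below this value in 8 of 9 libraries, but the value lay above the exact 95% interval of the observed share in only 3. These were 30 h without Dox and 19 h and 30 h with Dox in Experiment 2. In the other libraries the value lay within the interval. The gap was largest at 19 h and 30 h with Dox in Experiment 2. Positive and negative cells had close depths, with a ratio of median UMIs of 1.02 to 1.06 at 0 h and 0.955 to 1.07 with SAG.

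**Figure D1:**
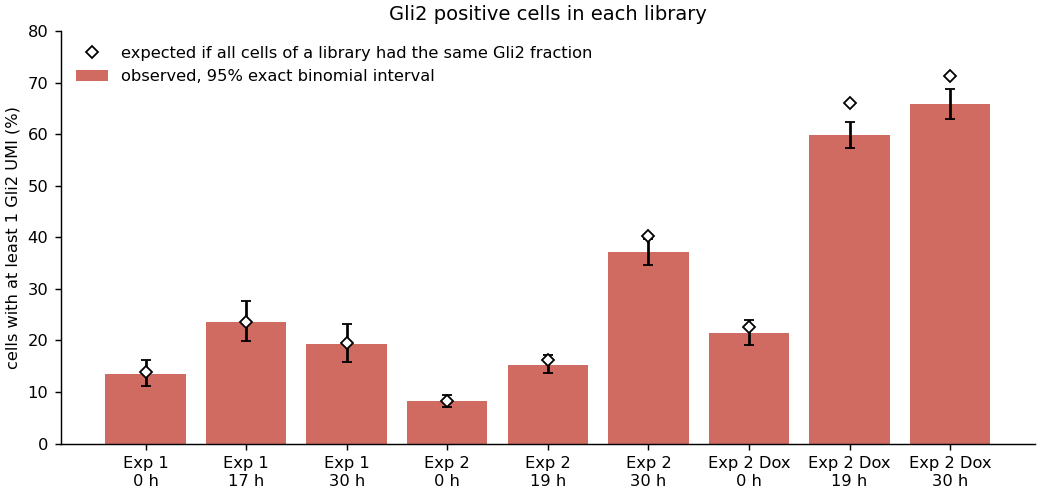
Percent of window cells with at least 1 Gli2 UMI in each of the 9 libraries, with exact (Clopper-Pearson) 95% intervals for counting error, beside the share an even Gli2 level would give (diamonds). The highest shares are the 2 SAG libraries with Dox (59.8% and 65.9%), with even-level values of 66.0% and 71.3%.

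The pathway readouts were higher in Gli2 positive than in Gli2 negative cells in each of the 6 SAG libraries. Gli1 (ENSMUSG00000025407, chromosome 10, 127329882 to 127341974 in mm10) encodes a GLI factor that is itself a target of the pathway. In Experiment 1 its level in positive and negative cells was 9.89 and 8.16 CPM at 17 h and 5.92 and 4.57 CPM at 30 h. In Experiment 2 without Dox it was 9.004 and 6.19 CPM at 19 h and 29.4 and 16.7 CPM at 30 h, and with Dox 29.2 and 21.5 CPM, then 37.8 and 29.2 CPM. The positive class was above the negative class within each library, but the ranges of the classes over libraries overlapped because the libraries themselves differed. The paired fit gave a log2 difference of 0.48 (SE 0.068, edgeR adjusted p = 0.00115, n = 6 libraries).

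Ptch1 (chromosome 13, 63508328 to 63573598), the receptor that restrains Smoothened and a direct target, showed the larger difference. In Experiment 1 it stood at 30.6 and 21.1 CPM in positive and negative cells at 17 h and at 14.3 and 10.4 CPM at 30 h. In Experiment 2 it stood at 38.0 and 23.2 CPM (19 h) and 105 and 55.2 CPM (30 h) without Dox, and at 111 and 79.9 CPM, then 153 and 105 CPM, with Dox. The log2 difference was 0.60 (SE 0.058, edgeR adjusted p = 0.000171, higher in 6 of 6 libraries). GFP_g1 stood at 19.5 and 9.01 CPM at 17 h and 4.58 and 3.11 CPM at 30 h in Experiment 1. In Experiment 2 its level was 53.1 and 32.7 CPM, then 59.5 and 39.3 CPM, without Dox, and 58.2 and 41.0 CPM, then 54.6 and 42.0 CPM, with Dox. Its log2 difference was 0.52 (SE 0.058, edgeR adjusted p = 0.000265, higher in 6 of 6 libraries).

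Before SAG, Gli1 was near the limit of detection, and Ptch1 and GFP_g1 were lower than in any SAG library, with no difference between the classes that passed the test. At 0 h, Gli1 was 0.288 and 0.278 CPM in positive and negative cells of Experiment 1, which is 1 and 6 UMIs. In the Experiment 2 libraries it was 0.156 and 0.0293 CPM without Dox and 0.126 and 0.0714 CPM with Dox, too few counts to be tested. Ptch1 at 0 h was 5.47 and 6.07 CPM, 3.28 and 2.21 CPM, and 3.40 and 3.104 CPM in the same order, from 19 to 27 UMIs in positive and 87 to 151 UMIs in negative cells, with a log2 difference of 0.12 (edgeR adjusted p = 0.957). GFP_g1 at 0 h was 2.02 and 0.927, 2.19 and 2.24, and 2.14 and 1.96 CPM, with a log2 difference of 0.17 (edgeR adjusted p = 0.955). The change of the difference from 0 h to SAG did not pass the test for Ptch1 (0.49 on the log2 scale, adjusted p = 0.488), GFP_g1 (0.40, adjusted p = 0.668) or Gli1 (-0.27, adjusted p = 0.962). The differences with SAG are therefore not shown to exceed those at 0 h.

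Within experiments, the Gli1 difference was 0.27 in the 2 SAG libraries of Experiment 1 (edgeR adjusted p = 0.871) and 0.51 in the 4 of Experiment 2 (adjusted p = 9.23e-05). For Ptch1 the values were 0.46 (adjusted p = 0.155) and 0.62 (adjusted p = 5.67e-06), and for GFP_g1 0.91 (adjusted p = 0.0129) and 0.50 (adjusted p = 4.45e-06). A fit that ignored which library the classes came from left none of the 3 called (adjusted p = 1 for each), with log2 differences of 0.49, 0.60 and 0.55. The classes also differed in mitochondrial share, whose median was higher in positive cells in 6 of 6 SAG libraries (5.53% to 8.09% against 4.77% to 7.49%). Barcodes with under 1% mitochondrial UMIs were 20.2% of positive and 21.4% of negative cells at 30 h without Dox in Experiment 2. With Dox they were 15.1% and 22.1% at 19 h and 15.1% and 22.0% at 30 h. An upper limit of 5% keeps such barcodes. With cells of at most 5% mitochondrial UMIs only, the differences were 0.53 for Gli1, 0.60 for Ptch1 and 0.53 for GFP_g1, all still called. That setting left 5 positive cells at 17 h and 5 at 30 h in Experiment 1. The SAG libraries of Experiment 2 kept 36 to 325, so the check rests on Experiment 2.

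**Figure D2:**
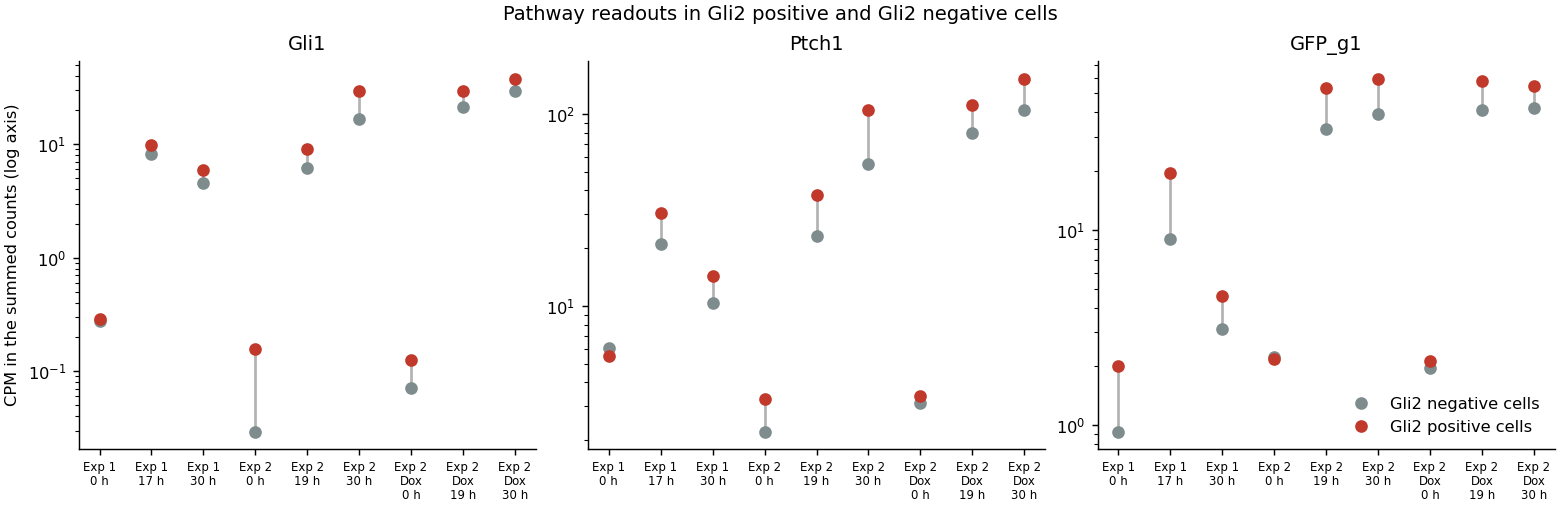
CPM of Gli1, Ptch1 and GFP_g1 in the summed Gli2 negative and Gli2 positive cells of each library, on log axes, with a line joining the 2 classes of a library. In the SAG libraries each line goes up from negative to positive, for example from 55.2 to 105 CPM for Ptch1 at 30 h without Dox in Experiment 2.

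The same was seen in the share of single cells with a readout UMI. With all cells thinned to 20000 UMIs, Gli1 was found in 20.2% of positive and 15.5% of negative cells at 17 h and in 9.09% and 8.13% at 30 h in Experiment 1. In Experiment 2 the shares were 17.5% and 12.8%, then 43.7% and 27.1%, without Dox and 43.0% and 30.4%, then 50.5% and 44.1%, with Dox. The mean difference was 7.63 percentage points (SD 5.78, n = 6, exact two-sided sign-flip permutation p = 0.03125, the smallest that 6 libraries allow). Unthinned, the lowest pair was 17.0% and 15.2% and the highest pair 75.3% and 64.8%. GFP_g1 was found in 7.95% to 60.6% of thinned positive cells and 6.78% to 51.2% of negative cells, a mean difference of 11.01 points (SD 5.90, n = 6, exact permutation p = 0.03125). At 0 h, no Gli1 UMI was found in the thinned positive cells of either Experiment 2 library (0 of 189 and 0 of 245, for which 3 counts set limits of 1.59% and 1.22% on the share of cells with a UMI). Before thinning, 0.529% and 0.408% of them held one. These intervals and limits cover counting error only.

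Among positive cells, those with more Gli2 UMIs had more Gli1. At 30 h with Dox, Gli1 was 29.2 CPM in cells with 0 Gli2 UMIs, 35.6 CPM in cells with 1 and 39.6 CPM in cells with 2 or more. At 30 h without Dox in Experiment 2 the levels were 16.7, 27.3 and 34.8 CPM. The log2 difference of cells with 2 or more over cells with 1 was 0.58 at 17 h and 0.36 at 30 h for Experiment 1. For Experiment 2 it was 1.13 at 19 h and 0.35 at 30 h in the libraries without Dox, and 0.10 and 0.15 in those with Dox. Its mean was 0.445 (SD 0.376, n = 6, exact permutation p = 0.03125). For Ptch1 the mean was 0.344 and 5 of 6 libraries were higher, the exception being 30 h in Experiment 1 at -0.17. For GFP_g1 the mean was 0.303 with 5 of 6 higher, the exception being 19 h without Dox at -0.12.

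The Gli1 gradation did not pass its test under 3 other settings. Cells with 2 or more Gli2 UMIs numbered 16 and 10 in Experiment 1, so those values rest on 8 and 3 Gli1 UMIs. The mean for Gli1 was 0.283 when cells were thinned to 20000 UMIs (exact permutation p = 0.156, n = 6), 0.0552 within 20000 to 40000 UMIs (exact p = 0.906) and 0.126 without cells that held 5 or more UMIs of mitosis genes (exact p = 0.719). The last setting left out 17.1% to 78.4% of the positive cells of a SAG library, and holding 5 such UMIs does not by itself mark a cell as in mitosis.

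**Figure D3:**
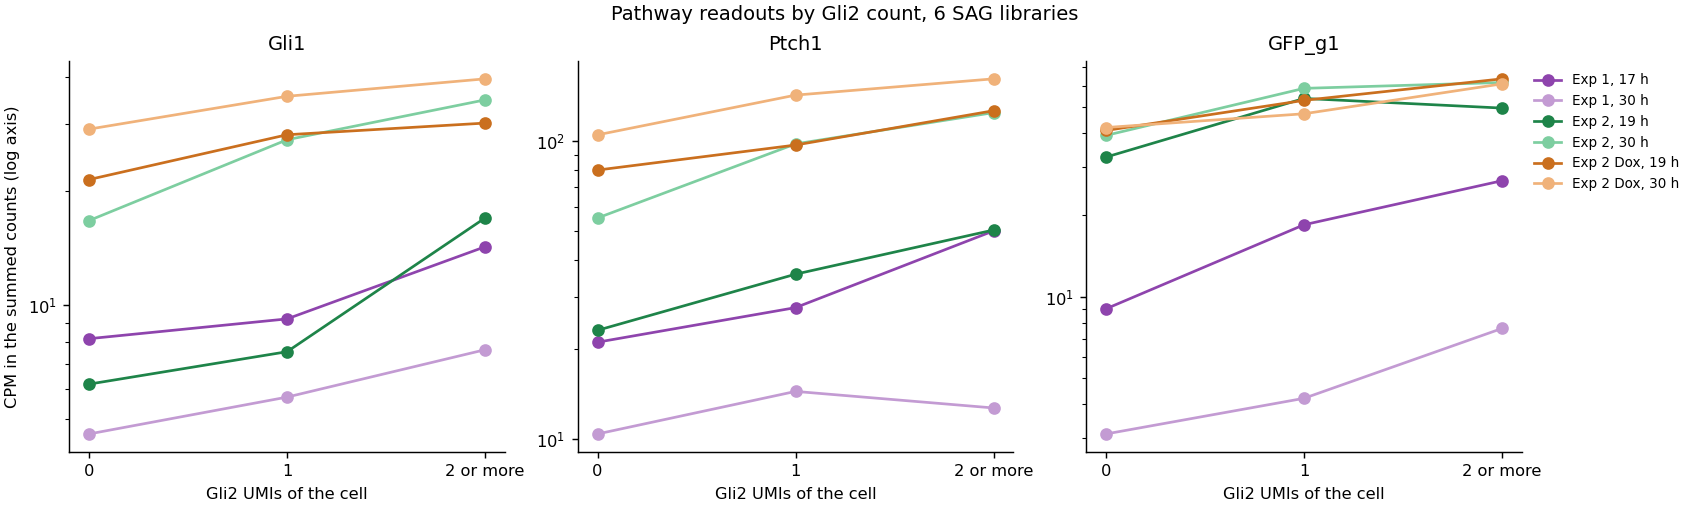
CPM of Gli1, Ptch1 and GFP_g1 in cells with 0, 1 and 2 or more Gli2 UMIs, 1 line per SAG library. Gli1 goes from 16.7 to 27.3 to 34.8 CPM at 30 h without Dox in Experiment 2, and the lines with Dox are flatter (29.2, 35.6 and 39.6 CPM at 30 h).

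Across all genes, more were called with SAG than at 0 h, but the SAG fit had 6 libraries and 2622 positive cells and the 0 h fit 3 libraries and 540. With SAG, 1833 of 11583 tested genes passed an adjusted p of 0.05 in edgeR (15.8%), of which 703 were higher (6.07%) and 1130 lower (9.76%) in positive cells. Most differences were small. The median log2 difference was 0.24 among genes called higher and -0.18 among genes called lower, and 96 genes passed 1.5-fold (21 higher, 75 lower). At 0 h, 22 of 11349 genes were called (0.194%), 7 higher (0.0617%) and 15 lower (0.132%). Leaving out 1 of the 3 libraries at 0 h gave 27 to 198 calls. A direct test of the difference between the SAG and 0 h contrasts called 0 of 11492 genes in edgeR (0%), with 1191 at an unadjusted p under 0.05, and 8 in DESeq2. Without the 17 h library of Experiment 1 that test called 168 genes, and without the 0 h Dox library 14. The median over all tested genes was 0.00 with SAG and -0.01 at 0 h.

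The SAG count depended on the libraries of Experiment 2. Leaving out 1 of them gave 1055 (19 h without Dox), 797 (30 h without Dox), 881 (19 h with Dox) or 744 calls (30 h with Dox), and the 2 libraries of Experiment 1 alone gave 96. With Experiment 1 alone, 1494 of the 1781 called genes that could be tested had the same sign. DESeq2 called 1234 genes. Without the pairing by library, edgeR called 0 genes, with 58 at an unadjusted p under 0.05; that fit asks for a difference beyond the spread between libraries of different times and Dox.

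Among called genes with a mean of at least 10 CPM in either class and the same direction in all 6 SAG libraries, those with the largest rises included signalling and matrix genes beside Ptch1 and GFP_g1. Below that level the differences could be larger, as for Igf1 (0.78), Meg3 (0.75) and Mirg (0.75), which are described with their lists. Igfbp7, a secreted protein that binds insulin-like growth factors, stood at 50.6, 165 and 451 CPM (lowest, median and highest library) in positive cells and 39.1, 86.8 and 290 CPM in negative cells. Its log2 difference was 0.62 (SE 0.083, edgeR adjusted p = 0.000787), and the positive class was higher in 6 of 6 libraries. Klf5 and Npr3, a transcription factor and a clearance receptor for natriuretic peptides, differed by 0.57 and 0.55. Aspn and Svep1, both matrix proteins, differed by 0.57 and 0.54. Lgr4, a receptor for R-spondins, differed by 0.53, and Sh3pxd2a, a podosome scaffold, by 0.49. These 6 genes were higher in 6 of 6 libraries, with edgeR adjusted p from 0.000171 to 0.00136.

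Under the same conditions, the genes with the largest falls were of other kinds. Larger falls outside those conditions included those of Cdca3 and Ccnb2 (both -1.18) and of other mitosis genes such as Cenpf. Ccl2 (-0.83) and Chac1 (-0.75) fell in 5 of 6 libraries. Dusp4, a phosphatase that acts on MAP kinases, was 1.28, 2.16 and 19.9 CPM in positive and 2.29, 4.09 and 28.0 CPM in negative cells (log2 difference -0.89, SE 0.13, edgeR adjusted p = 0.00115). Among cells of at most 5% mitochondrial UMIs it was not called (-0.51, adjusted p = 0.0745). Car6, a secreted carbonic anhydrase, differed by -0.80 (adjusted p = 0.00149) and Mt2, a metallothionein that binds metal ions, by -0.59 (adjusted p = 0.000371). Hmga1 and Hmga1b, near-identical chromatin proteins whose reads may be shared, differed by -0.56 and -0.49. Ifrd1 differed by -0.49 and Larp1b by -0.43. Dusp4, Car6, Mt2, Hmga1, Hmga1b, Ifrd1 and Larp1b were each lower in 6 of 6 libraries. Rangap1 (-0.46) and Tmem176a (-0.46) were also lower in 6 of 6, but Rangap1 was not called without cells of 5 or more mitosis UMIs (-0.19, adjusted p = 0.346) and Tmem176a not with equal cell numbers per depth bin (-0.34, adjusted p = 0.066).

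**Figure D4:**
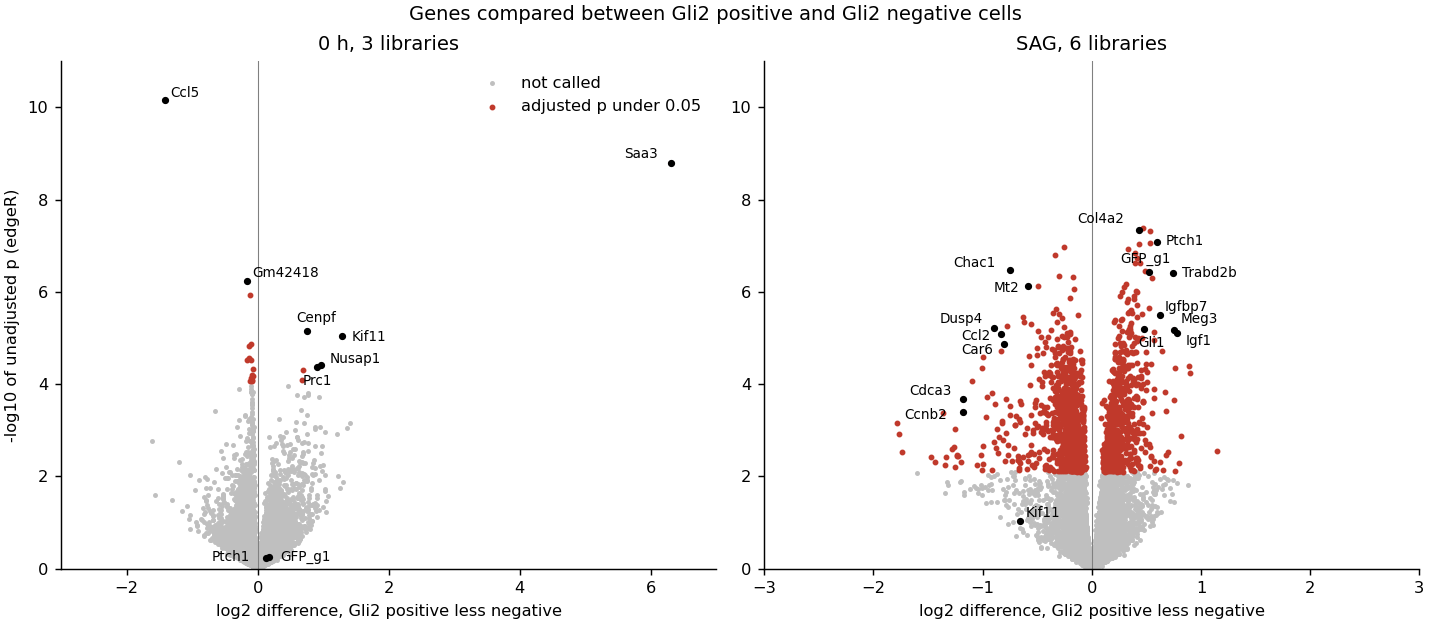
Log2 difference of Gli2 positive less Gli2 negative cells (x axis) against -log10 of the unadjusted edgeR p (y axis), with 1 point per tested gene at 0 h (left) and with SAG (right). Called genes are red, labelled genes are black, and the x axes differ in range. With SAG, Ptch1 (0.60), GFP_g1 (0.52) and Gli1 (0.48) lie right of 0 and Dusp4 (-0.89), Car6 (-0.80) and Mt2 (-0.59) left of it, while at 0 h Ptch1 (0.12) and GFP_g1 (0.17) lie near the bottom.

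Of the Hedgehog targets, 10 of 22 tested were higher and 1 lower in positive cells with SAG, against 6.07% higher and 9.76% lower of all genes tested, with a list median of 0.18. Beside Ptch1 and Gli1, the higher genes were Igf1, Foxc1, Bcl2, Foxf2, Cdon, Igfbp6, Igf2 and Gas1. The lower gene was Myc, a growth regulator (-0.37, edgeR adjusted p = 0.0133). The counts take no account of whether the pathway raises or lowers a member, so they are not counts of induced targets. Igf1, a growth factor, was 1.10, 3.81 and 10.6 CPM in positive and 0.854, 1.82 and 5.91 CPM in negative cells (lowest, median, highest library; log2 difference 0.78, adjusted p = 0.00116). Foxc1 and Foxf2, forkhead factors of mesenchyme, differed by 0.36 and 0.29, and Bcl2, a survival factor, by 0.49 (adjusted p = 0.0018, 5 of 6 libraries). The summed level of the list was higher in positive cells in 6 of 6 libraries, by ratios of 1.02 to 1.21. At 0 h none of its 18 tested genes was called and the median was 0.07. A set of 7 genes taken from an earlier look at the SAG response of these libraries had 5 higher and 0 lower (Col4a1, Col4a2, Trabd2b, Gipc2 and Lactb), which is not independent evidence of direction.

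Of 16 tested receptors and ligand-side components upstream of GLI2, 4 were higher and 0 lower with SAG, against 6.07% and 9.76% of all genes tested. They were Ptch1, the co-receptors Cdon and Gas1, and Iqce, a protein of the cilium base. Ptch1, Cdon and Gas1 are also in the Hedgehog target list, so the counts of both lists share these genes. The list median was 0.13, and its summed level in positive cells was 1.09 to 1.30 times that in negative cells in the 6 SAG libraries. Cdon differed by 0.50 (adjusted p = 0.00245) and was higher in 5 of 6 libraries, at 3.23, 11.4 and 27.5 CPM in positive and 3.58, 6.63 and 21.1 CPM in negative cells. Gas1 was near the threshold (0.19, adjusted p = 0.0495) and lost its call in 16 of 22 alternative settings; Iqce (0.29, adjusted p = 0.0435) lost its call in 15 of 22. Smo, which encodes Smoothened, differed by 0.02 (adjusted p = 0.773), the co-receptor Boc by 0.17 (adjusted p = 0.678) and the repressor-forming Gli3 by 0.12 (adjusted p = 0.273). Sufu differed by 0.02 (adjusted p = 0.889). Hhip, a Hedgehog-binding membrane protein, had no UMI in these cells.

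Of 29 GLI factors and regulators, Gli1 was higher and Gsk3a and Spop, a kinase and a ubiquitin ligase adaptor that act on GLI proteins, were lower. These are smaller shares than the 6.07% higher and 9.76% lower of all genes tested, so they do not set the list apart. Gsk3a (-0.18, adjusted p = 0.0271) and Spop (-0.12, adjusted p = 0.0346) both lost their calls when any of the 4 Experiment 2 SAG libraries was left out. None of 53 tested genes of the primary cilium was called by edgeR (5 higher and 3 lower at an unadjusted p under 0.05), and the list median was 0.05.

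Extracellular matrix genes were mostly higher in positive cells with SAG. Of 48 tested, 33 were higher and 3 lower, against 6.07% and 9.76% of all genes tested, and the list median was 0.23. Col4a1 and Col4a2, the chains of basement membrane collagen IV, differed by 0.41 and 0.43 (adjusted p = 0.000194 and 0.000171). Both are also in the set taken from the earlier look at the SAG response, so their direction is not independent evidence. Col4a1 was 103, 285 and 609 CPM in positive and 74.8, 190 and 456 CPM in negative cells, and the positive class was higher in each library. Col5a2 differed by 0.33, Col3a1 by 0.46 and Fn1, which encodes fibronectin, by 0.21, each in 6 of 6 libraries. The summed matrix level was higher in positive cells by ratios of 1.13 to 1.33 in the 6 SAG libraries and 1.08, 0.981 and 1.09 at 0 h (Experiment 1, then without and with Dox). In Experiment 1 alone 16 of 45 matrix genes were higher and 0 lower, against 63 and 33 of all 10758 genes tested.

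Genes of Wnt signalling were higher in 9 of 22 and lower in 0 cases with SAG (median 0.21), against 6.07% and 9.76% of all genes tested. They were the ligand Wnt5a, the receptors and co-receptors Fzd1, Fzd2, Lrp6 and Ryk, the nuclear factors Tcf7l1 and Tcf7l2, and Dkk3 and Trabd2b. Trabd2b, a membrane protease that cleaves Wnt proteins, differed by 0.74 (adjusted p = 0.000265) and was higher in 5 of 6 libraries. It differed by -0.15 in Experiment 1 alone, and it too is in the set taken from the earlier look at the SAG response. Wnt5a was 1.88, 10.8 and 36.5 CPM in positive and 1.39, 6.34 and 25.9 CPM in negative cells (0.53, SE 0.068, adjusted p = 0.000708, 6 of 6 libraries). In Experiment 1 alone none of 21 Wnt genes was called and the median was 0.07. In the TGF-beta and BMP list 7 of 29 were higher and 1 lower (median 0.10), the lower share being below that of all genes. The higher genes included the receptors Bmpr2 (0.26), Tgfbr3 (0.28) and Tgfbr1, and the ligand subunit Inhba (0.31), and the lower gene was the receptor Tgfbr2.

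Of 35 mesenchymal transcription factors, 9 were higher and 2 (Runx1 and Klf6) lower with SAG, with a median of 0.06. Among all genes tested, 6.07% were higher and 9.76% lower, so the 2 lower genes do not set the list apart. Nr2f2, an orphan nuclear receptor, was 77.8, 208 and 315 CPM in positive and 59.1, 142 and 258 CPM in negative cells (0.36, adjusted p = 0.000773, 6 of 6 libraries). Nfia differed by 0.37 (adjusted p = 0.000787), and its relatives Nfib and Nfix were also higher. Foxc1 and Foxf2 are among the 9 and also in the Hedgehog target list, so the counts of both lists share them. Among 11 tested nuclear noncoding RNAs, Meg3, Mirg and Dnm3os were higher and Snhg12 and Pvt1 lower, against the same 6.07% and 9.76% of all genes. Meg3, from an imprinted cluster, was 2.75, 6.62 and 9.54 CPM in positive and 1.61, 4.35 and 4.64 CPM in negative cells (0.75, adjusted p = 0.00115, 6 of 6 libraries). Mirg differed by 0.75 (adjusted p = 0.00596) but was not called within 20000 to 40000 UMIs (0.41, adjusted p = 0.266). Dnm3os lies antisense within Dnm3, and strand use in the counting is not stated, so its value is uncertain.

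Stress and metabolic genes were lower in positive cells with SAG. In the list of ATF4 targets and stress genes, 18 of 24 were lower and 1 higher (median -0.34). Among all genes tested, 9.76% were lower and 6.07% higher. Atf4, the transcription factor of the amino acid and unfolded protein responses, was 149, 176 and 436 CPM in positive and 184, 229 and 445 CPM in negative cells (-0.31, adjusted p = 0.0016, lower in 6 of 6 libraries). Chac1, a glutathione-degrading enzyme and ATF4 target, differed by -0.75 (adjusted p = 0.000265) and was lower in 5 of 6 libraries. The summed level of the list was 0.763 to 1.001 times that of negative cells. At 0 h none of its 24 genes was called (0 higher and 4 lower at an unadjusted p under 0.05, median -0.07).

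In the list of glycolysis and hypoxia genes, 13 of 22 were lower and 0 higher with SAG (median -0.19), among them Pgk1 (-0.29), Gapdh (-0.22) and Tpi1 (-0.34). The shares of all genes tested were 9.76% lower and 6.07% higher, here and for the next list. In cholesterol synthesis 7 of 23 were lower and 0 higher (median -0.17), with Mvd, Pmvk and Mvk, enzymes of the mevalonate steps, at -0.46, -0.40 and -0.39. These 3 lists had medians of opposite sign in the separate experiments; the difference between experiments was not tested. In Experiment 1 alone the medians were 0.07 for ATF4 and stress, 0.03 for glycolysis and 0.22 for cholesterol synthesis, with 1, 0 and 0 genes called lower. In Experiment 2 alone they were -0.39, -0.23 and -0.21, with 22, 15 and 18 called lower. All genes called lower numbered 33 of 10758 in Experiment 1 alone and 1901 of 11960 in Experiment 2 alone. Leaving out any 1 of the 4 SAG libraries of Experiment 2 left 10 to 12 ATF4 and stress genes, 4 to 8 glycolysis genes and 3 to 4 cholesterol genes lower.

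Of 16 NF-kB targets and chemokines, 5 were lower (Ccl2, Ccl7, Nfkbia, Nfkb2 and Relb) and Ptgs2 was higher with SAG. Among all genes tested, 9.76% were lower and 6.07% higher, and 1 higher of 16 is close to the latter share. The chemokine Ccl2 was 8.62, 21.8 and 25.3 CPM in positive and 17.0, 31.9 and 41.7 CPM in negative cells (-0.83, SE 0.12, adjusted p = 0.00119, lower in 5 of 6 libraries). Ccl7, its neighbour in the chemokine family, differed by -0.42 (adjusted p = 0.00164, lower in 6 of 6). Ankrd1, a target of YAP, differed by -0.79 (adjusted p = 0.00583) over the 6 libraries but by 0.68 in Experiment 1 alone. DESeq2 did not call it (-0.42, adjusted p = 0.451). Its list of contractile genes and targets of SRF and YAP had 5 of 30 lower and 3 higher (median 0.02), against 9.76% and 6.07% of all genes tested. Ribosomal protein genes were lower by a small amount, 36 of 44 called with a median of -0.08 and a summed ratio of 0.954 to 0.993. Mitochondrially encoded genes were higher in 5 of 13 and lower in 0 (median 0.07). With cells of at most 5% mitochondrial UMIs none of the 13 was higher and 1 was lower (median -0.04).

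**Figure D5:**
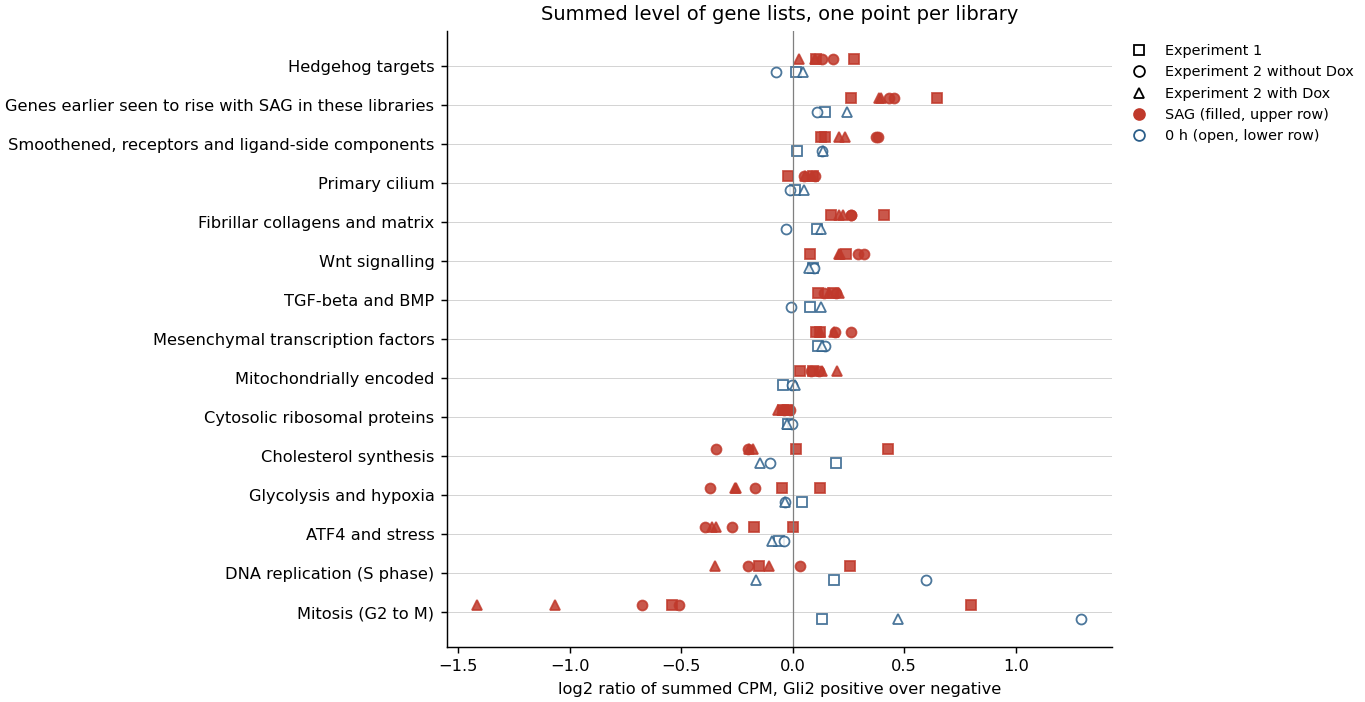
Log2 ratio of the summed CPM of each gene list in Gli2 positive over Gli2 negative cells (x axis), with 1 point per library, filled for SAG and open for 0 h, shaped by experiment and Dox. The matrix list lies right of 0 in all 6 SAG libraries (ratios of 1.13 to 1.33), and the mitosis list lies left of 0 in 5 of 6 SAG libraries and right of it in 3 of 3 at 0 h.

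The summed level of mitosis genes was lower in positive cells in 5 of 6 libraries with SAG and higher in 3 of 3 at 0 h, and the number of genes called depended on single libraries. With SAG, 20 of 47 were lower and 0 higher in positive cells (median -0.97), against 9.76% and 6.07% of all genes tested. Ccnb2 and Cdca3, a mitotic cyclin and a cell division protein, both differed by -1.18, and Racgap1, a regulator of cytokinesis, by -0.65. The summed level in positive and negative cells was 1309 and 751 CPM at 17 h and 698 and 1017 CPM at 30 h in Experiment 1. In Experiment 2 it was 263 and 374 CPM, then 132 and 210 CPM, without Dox and 152 and 405 CPM, then 173 and 364 CPM, with Dox. Positive cells were thus above negative cells at 17 h in Experiment 1 and below in the other 5. The median was 0.19 in Experiment 1 alone and -1.55 in Experiment 2 alone. Without the 17 h library of Experiment 1, 45 genes were lower, and without any 1 SAG library of Experiment 2, 3 to 7. Among all genes, 1584 were lower in the former fit and 420 to 624 in the latter ones.

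The share of cells with at least 5 UMIs of mitosis genes was close in both classes with SAG, 17.1% to 78.4% of positive and 16.4% to 77.0% of negative cells. Leaving out those cells takes away the mitosis genes by construction, and 13 of the 47 could still be tested, so nothing is read from them. Without those cells, 26 of 46 matrix genes and 8 of 21 Hedgehog targets were still higher, against 441 of all 10712 genes tested. The Gli1, Ptch1 and GFP_g1 differences were then 0.42, 0.55 and 0.47, all called. Of 49 DNA replication genes, Dut and Cdc45 were lower with SAG and none was higher (median -0.16), a smaller share than the 9.76% of all genes tested that were lower.

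At 0 h the 7 genes higher in positive cells were 6 mitosis genes and Saa3. Kif11, the motor of the mitotic spindle, was 12.96 and 9.08 CPM in positive and negative cells of Experiment 1, 18.1 and 4.20 CPM without Dox and 5.28 and 2.60 CPM with Dox in Experiment 2. Its log2 difference was 1.29 (SE 0.22, edgeR adjusted p = 0.0169, higher in 3 of 3 libraries). Nusap1 (0.97), Prc1 (0.91), Cenpf (0.76), Cdca8 (0.69) and Ckap2 (0.68), which act on the spindle and chromosomes, were also higher in 3 of 3. The list median was 0.67 over 47 tested genes, 6 higher and 0 lower, against 0.0617% and 0.132% of all genes tested. The summed mitosis level was 1.10, 2.45 and 1.39 times that of negative cells. The share of cells with at least 5 mitosis UMIs in positive and negative cells was 52.8% and 53.9% in Experiment 1, 29.6% and 17.5% without Dox and 17.6% and 11.7% with Dox.

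The mitosis values changed with the depth window. Within 20000 to 40000 UMIs the list median at 0 h was -0.22, with 0 higher and 1 lower of 44, and with equal cell numbers per depth bin it was 0.18 with none called. Without the 0 h library of Experiment 2 without Dox, the median was 0.20 and 1 gene was called. Saa3, an acute phase protein, differed by 6.30 (adjusted p = 9.31e-06), but 1 cell held 90.2% of its 1501 UMIs at 0 h and the positive class was higher in 1 of 3 libraries.

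The 15 genes lower at 0 h were Ccl5 and 14 abundant genes with small differences. Ccl5, a chemokine, was 13.5 and 31.0 CPM in positive and negative cells of Experiment 1, 14.5 and 41.4 CPM without Dox and 4.65 and 10.7 CPM with Dox. The positive class was lower in 3 of 3 libraries (log2 difference -1.41, SE 0.11, edgeR adjusted p = 7.99e-07), and 1 cell held 11.4% of the UMIs. With cells of at most 5% mitochondrial UMIs Ccl5 was not called (-0.44, adjusted p = 0.986), but that setting left 15, 12 and 17 positive cells in the 3 libraries. With SAG Ccl5 differed by -0.07 (adjusted p = 0.831). The others included 5 ribosomal protein genes of the list of 44, against 0.132% lower of all genes tested. At an unadjusted p under 0.05 in edgeR, 39 of the 44 were lower, against 508 of all 11349 genes, and 0 of the 44 had a positive log2 difference. Rpl39 (-0.10), Rpl41 (-0.11), Rps26 (-0.13) and Rps27a, ribosomal protein genes outside that list, were also called lower. Further genes included Cd63 (-0.16), Eif1 (-0.13) and mt-Cytb (-0.11). Leaving out a library gave 198 calls at 0 h without Experiment 1, 138 without the Dox library and 27 without the Experiment 2 library without Dox, and DESeq2 called 1.

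Of the 22 genes called at 0 h, 12 were also called with SAG, against 15.8% of all genes tested with SAG. The 12 are 54.5% of the 0 h calls and 0.655% of the SAG calls, and 10 of them had the same sign. Those 10 were Cd63, Eif1, Gm10076 and 7 ribosomal protein genes, all abundant and all lower in positive cells. With SAG, 36 of the 44 ribosomal protein genes of the list were called lower. Cenpf and Cdca8 had opposite signs, at 0.76 and 0.69 at 0 h and -0.99 and -0.87 with SAG.

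Under splits on 2 other pathway genes, none of the 3 readouts was called with SAG. When the same cells were divided by at least 1 UMI of Gli3, edgeR called 344 of 11686 genes with SAG (2.94%), and divided by Smo, 846 of 11288 (7.49%). At 0 h the Gli3 split called 59 of 11531 genes (0.512%) and the Smo split 795 of 11775 (6.75%), more than the 22 of the Gli2 split. Class sizes differed between the splits, so these counts are not on equal terms. Positive cells for Gli2, Gli3 and Smo numbered 540, 1132 and 2614 at 0 h and 2622, 2339 and 5420 with SAG. The Gli1, Ptch1 and GFP_g1 differences were -0.02, 0.04 and -0.08 under the Gli3 split and -0.01, 0.11 and -0.06 under the Smo split, with adjusted p from 0.19 to 0.979. Of the genes called in the Gli2 split, 157 of 1832 tested were called with the same sign under the Gli3 split and 254 of 1829 under the Smo split. Igfbp7, at 0.62 under the Gli2 split, stood at -0.08 and -0.04. Mt2 was lower under the Gli3 split (-0.19, adjusted p = 0.0479) and Sh3pxd2a higher under the Smo split (0.17, adjusted p = 0.0336), both by less than under the Gli2 split. Of the 22 genes called at 0 h in the Gli2 split, 5 were called with the same sign under the Gli3 split and 10 under the Smo split. Prc1, Nusap1 and Ckap2 were higher in all 3 splits at 0 h, by 0.98, 1.29 and 0.81 for Gli3 and 0.64, 0.77 and 0.40 for Smo, and Eif1 and Gm42418 were lower in all 3. The differences between splits were not themselves tested.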

How the data were processed

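RNA of single cells was measured with a 3' kit of 10x Genomics in 9 libraries, and the deposited matrices hold raw UMI counts. Reads were processed with Cell Ranger against mm10, per the submitters' processing notes, by software 3.1.0 in Experiment 1 and 6.0.1 in Experiment 2, per the file headers. The filter behind the deposited barcodes is not given in the sources used here. Gene positions are those of GENCODE vM21.

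The members and gene lists were chosen with earlier results of these data known. Counts of each Gli2 class were summed per library and joined by gene ID; 0.0714% to 0.864% of a library's UMIs lay in features not shared by all files. Classes were compared with edgeR 4.0.16 in R 4.3.3 (filterByExpr, TMM, quasi-likelihood test, library and class as terms, Benjamini-Hochberg adjusted p under 0.05), separately at 0 h and with SAG, and between them by an interaction. Pairing is by library, since both classes come from the same one. Shares and per-library differences were tested by exact sign-flip permutation in Python 3.11.15 (scipy 1.17.1, numpy 2.4.6, pandas 2.3.3). Alternatives were DESeq2 1.42.0, other size factors, filters, depth and mitochondrial windows, thinning, and leaving out libraries. The tests were tried on simulated counts first. The p-values reflect the spread among these libraries only, and that spread may be technical. Named genes were the pathway genes Gli1, Ptch1, Hhip, Gli3, Smo, Sufu, Boc, Cdon, Gas1 and GFP_g1, the 10 largest called differences in each direction with at least 10 CPM and 1 direction in all libraries, and up to 3 genes per list by p; members of lists named only to account for a count fall outside that rule, and some genes that it names are not reported here. CPM values are counts scaled by all UMIs of the summed class. Ribosomal protein genes, Gm10076 and Gm42418 have near-copies, so their counts are less certain.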

Additional observations from a re-analysis of the deposited data

Results flagged for a closer look

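In 7 of 87 sets of 6 SAG libraries, 1 library lay far from the other 5 in its log2 difference of Gli2 positive over negative cells; chance does this in about 1 in 20 sets. At 17 h in Experiment 1, Chac1 was at 0.058 where the nearest other library was at -0.525, and 3 collagen genes were high: Col1a2 at 0.605 (nearest 0.311), Col4a1 at 0.732 (nearest 0.465) and Col5a2 at 0.534 (nearest 0.372). Dnm3os was low at 30 h in Experiment 1, at 0.039 (nearest 0.41). At 30 h without Dox in Experiment 2, Lgr4 was high at 0.742 (nearest 0.571), as was Sh3pxd2a at 0.821 (nearest 0.521). Of these 7 genes, Chac1 alone changed sign in the library that stood apart.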

How the results depend on the processing

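With SAG, Ptch1 ranged over 0.45 to 0.75, Gli1 over 0.27 to 0.59 and GFP_g1 over 0.35 to 0.91 on the log2 scale across 22 alternatives, with no change of sign. The count of 1833 genes called with SAG became 0 with no replicate block (58 at unadjusted p under 0.05). It was 1154 with classes called on thinned cells and 1073 within 20000 to 40000 UMIs. Without cells of 5 or more mitosis UMIs (mitosis-rich cells) it was 1165. It was 96 in Experiment 1 alone, 3379 in Experiment 2 alone and 744 to 2680 with 1 library left out. These too are the calls of each setting.

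The count of 22 genes at 0 h became 0 with no replicate block (7 at unadjusted p under 0.05) or with 1 fit over all 9 libraries. It became 1 with DESeq2, with equal depth bins or within 30000 to 60000 UMIs. At no more than 5% mitochondrial UMIs it was 2, and at 1% to 10% it was 14. With RLE size factors or without the mitosis-rich cells it was 6, and with at least 2 Gli2 UMIs 9. It was 12 with classes on thinned cells, 46 with thinned cells and 29 within 20000 to 40000 UMIs. Without a filter it was 195, in Experiment 2 alone 198, and with 1 library left out 27 to 198. These are the calls of each setting, not subsets of the 22. At no more than 5% mitochondrial UMIs, 0 of the 21 that could be tested were called. With at least 2 Gli2 UMIs, and within 20000 to 40000 UMIs, 1 of 21 was called. The number was 3 of 22 with classes on thinned cells, 20 with thinned cells and 22 in Experiment 2 alone. Experiment 1 alone has 1 library at 0 h and gave no test.

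The 0 calls of the difference between SAG and 0 h became 8 with DESeq2, 353 without a filter, 11 with thinned cells, 42 with classes on thinned cells, 15 within 20000 to 40000 UMIs, 51 at no more than 5% mitochondrial UMIs, 4 with at least 2 Gli2 UMIs, 2 without the mitosis-rich cells, 1 in Experiment 1 alone, 228 in Experiment 2 alone and 0 to 168 with 1 library left out.

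The difference in Gli1 positive cells of 7.63 points missed the threshold at no more than 5% mitochondrial UMIs (9.51, exact p = 0.0625), and in fewer libraries, which cannot reach it: 2.82 in Experiment 1, 10.0 in Experiment 2 and 5.84 to 8.96 with 1 left out. The GFP_g1 difference of 11.01 points missed it with equal depth bins (10.3), within 30000 to 60000 UMIs (11.4), at no more than 5% mitochondrial UMIs (10.9), in Experiment 1 (5.70), Experiment 2 (13.7) and with 1 library left out (9.91 to 12.98). The Gli1 gradation of 0.445 missed it with thinned cells (0.283), within 20000 to 40000 UMIs (0.0552), without the mitosis-rich cells (0.126), in Experiment 1 (0.470), Experiment 2 (0.433) and with 1 left out (0.309 to 0.514).

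Signs changed at 0 h within 20000 to 40000 UMIs for Cenpf (-0.17), Ckap2 (-0.0149), Kif11 (-0.25), Nusap1 (-1.08) and Prc1 (-0.61), for Cenpf without the mitosis-rich cells (-0.25), for Nusap1 with at least 2 Gli2 UMIs (-0.21), and for Saa3 with classes on thinned cells (-3.07) and with 1 library left out (-0.55 to 6.94, the lowest without the Experiment 2 library without Dox). With SAG they changed in Experiment 1 alone for Ankrd1 (0.68), Gsk3a (0.054), Herpud1 (0.041), Mvd (0.10), Mvk (0.29), Pmvk (0.033), Tpi1 (0.010) and Trabd2b (-0.15), and at no more than 5% mitochondrial UMIs for mt-Atp6 (-0.078) and mt-Co3 (-0.038). The cause of these changes was not tested.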
